A study of Mus musculus with 4 samples.

Results

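The immunity-related GTPases are described here as the 7 genes Igtp, Irgm1, Irgm2, Iigp1, Tgtp1, Tgtp2 and Ifi47, taken by their symbols from the 24346 genes listed for each liver library. They were chosen by their FPKM in the 7KC and control libraries, the comparison made here, so their differences are given as a description and nothing is inferred from their p-values. Whole liver of male wild-type C57BL/6 mice was profiled by RNA sequencing. For 3 weeks all mice ate the NASH diet, a steatohepatitis-inducing feed with high fat, high cholesterol and bile salt. The 7KC group (n = 2 libraries) had 7-ketocholesterol (7KC), an oxidized form of cholesterol, mixed into that diet, and the control group (n = 2 libraries) did not. There was no group on ordinary chow, so every value belongs to a liver already on the NASH diet. The labels number the samples within each group without saying that each was a separate animal, so the standard errors and p-values below measure only the spread between these samples.

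Immunity-related GTPases are proteins that cells make after exposure to interferon, above all interferon-gamma, and they help mouse cells to attack microbes that live inside membrane-bound vacuoles. They fall into a pair of classes named after their nucleotide-binding motif. The regulatory GMS class, with Irgm1, Irgm2 and Igtp (also called Irgm3), sits on the membranes of the cell's own organelles and lipid droplets and holds the other class inactive there. The effector GKS class, with Iigp1 (Irga6), Tgtp1 and Tgtp2 (both Irgb6) and Ifi47 (Irgd), loads onto vacuole membranes and breaks them.

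The class difference can be read from the coding sequences. The stretches below run 5′ to 3′ along the coding strand and surround the codon that separates the classes, which is in capitals and encodes methionine in the GMS genes and lysine in the GKS genes. They were read from the GENCODE M21 transcripts and are shown because the 2 classes are compared below.
Igtp: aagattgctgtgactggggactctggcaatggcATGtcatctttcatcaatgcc
Irgm1: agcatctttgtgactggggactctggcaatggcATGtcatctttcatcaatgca
Irgm2: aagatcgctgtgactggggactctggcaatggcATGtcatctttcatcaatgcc
Tgtp1: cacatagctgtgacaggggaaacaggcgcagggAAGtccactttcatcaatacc
Tgtp2: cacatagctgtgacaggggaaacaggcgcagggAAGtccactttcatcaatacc
Ifi47: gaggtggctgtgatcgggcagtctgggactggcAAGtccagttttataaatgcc
Tgtp1 and Tgtp2 were identical over this stretch, and Igtp and Irgm2 were close to each other. Over the whole coding sequence Tgtp1 and Tgtp2 differed at 4 of 1248 bases (99.7% identity), Igtp and Irgm2 had 72.8% identity, and pairs of a GMS with a GKS gene had 57.8% to 62.4%. Of all 75-base windows of the Tgtp1 transcripts, 84.8% were also found in Tgtp2, where 75 bases is the read length here. Reads from these windows cannot be assigned to a single gene, and how the authors divided them is not given in the sources used here, so the separate values of Tgtp1 and Tgtp2 are uncertain. For Igtp and Irgm2 the shared part was 8.37% of the Igtp windows and 4.02% of the Irgm2 windows. No window was shared between any other pair of the 7 genes.

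Of the 7 genes, 6 lie on mouse chromosome 11 (GENCODE M21 on GRCm38, that is mm10). Irgm1 spans 48861968 to 48871683, Tgtp1 48985327 to 48994172 and Tgtp2 49057194 to 49064206, all on the minus strand, and Ifi47 spans 49076587 to 49096974 on the plus strand. Igtp (58199556 to 58207591) and Irgm2 (58199618 to 58222782) overlap on the plus strand at a separate site of the same chromosome. Iigp1 lies on a different chromosome. Ifi47 also overlaps the olfactory receptor gene Olfr56 on its own strand, which was at 0.042 to 0.338 FPKM in the 4 libraries.

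RefSeq promoters on GRCm38.p6 (250 bases before to 50 after the transcription start) were searched for binding motifs of the interferon pathways in 6 of the 7 genes. GAS, the gamma-activated site of interferon-gamma-responsive genes, was searched as TTCNNNGAA, which reads the same on both strands, and the ISRE core, the site of interferon regulatory factors, as GAAANNGAAA or its reverse complement TTTCNNTTTC. GAS was present in 4 of the 6 promoters and in 8.30% of all 32851 promoters. The ISRE core was present in 5 of the 6 and in 3.44% of all, and in none of the 6 did a GAS match overlap an ISRE core. In Igtp, Irgm2, Tgtp1 and Tgtp2 both motifs stood side by side with 2 bases between them, shown here with 10 bases on each side and the motifs in capitals.
Igtp: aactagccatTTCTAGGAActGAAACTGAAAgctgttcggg
Irgm2: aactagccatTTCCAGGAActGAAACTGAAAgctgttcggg
Tgtp1: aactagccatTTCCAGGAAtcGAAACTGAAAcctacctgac
Tgtp2: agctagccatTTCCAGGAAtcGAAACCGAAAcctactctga
These windows are chr11:58199501-58199541 (plus strand), chr11:58214892-58214932 (plus strand), chr11:48992304-48992344 (minus strand) and chr11:49064263-49064303 (minus strand). The same joined form was found in 5 of the 32851 promoters (0.0152%), namely these 4 and that of Gm12185, a family relative that overlaps Tgtp1 on the same strand and shares 5.42% of the Tgtp1 windows. The joined form was defined after the sequences were seen, and the 4 genes are related members of the family, Tgtp1 and Tgtp2 most closely, so the match is a description. The Irgm1 promoter (chr11:48871371-48871670, minus strand) held 2 ISRE cores that overlap each other, in capitals below, and no GAS match.
Irgm1: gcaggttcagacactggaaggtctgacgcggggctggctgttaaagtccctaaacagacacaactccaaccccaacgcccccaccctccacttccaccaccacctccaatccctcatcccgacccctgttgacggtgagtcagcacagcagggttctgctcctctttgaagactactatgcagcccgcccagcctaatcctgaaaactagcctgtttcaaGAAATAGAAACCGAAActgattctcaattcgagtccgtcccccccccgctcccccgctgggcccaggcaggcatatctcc
The Ifi47 promoter had no match to either motif in its 300 bases.

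Library depth, estimated from the steps of the low values, was 13600000 to 17000000 mapped reads, and 10967 to 11415 genes per library reached 1 FPKM. FPKM, the unit of the deposited values, divides the fragments of a gene by its transcript length and by the mapped fragments of the library, so levels of different genes can be set side by side. Across genes, the correlation of log2(FPKM + 0.5) was 0.98 within the control group, 0.983 within the 7KC group and 0.958 to 0.979 across groups. Hepatocyte markers were abundant in every library: the summed FPKM of 10 such genes was 77176 and 67628 in the control group and 55635 and 42454 in the 7KC group. Their median log2 change was -0.53, and 8 of the 10 were lower in both 7KC libraries than in both control libraries (27.4% of all tested genes were). Of the 10, 0 passed limma's adjusted threshold, and 2 had an unadjusted p under 0.05 with lower values in the 7KC group (5.81% of all tested genes did). In whole liver, fewer cells of a type and less RNA per cell cannot be told apart.

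All 7 immunity-related GTPases were higher in both 7KC libraries than in both control libraries, as were 25.1% of all tested genes. Their summed level was 247 and 299.6 FPKM in control replicates 1 and 2, and 1045 and 687 FPKM in 7KC replicates 1 and 2. The ratio of the group means (866 ± 253 against 273 ± 37.4 FPKM, SD, n = 2 each) was 3.17. Single genes had between 2.28 and 6.5 times the control mean. Log2 changes below are differences of group means of log2(FPKM + 0.5) with their standard error (SE) from a limma fit over 12299 genes, and they understate the change of genes with low values, so that ratios of mean FPKM are given beside them for some of these.

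Among the regulatory GMS genes, Igtp was at 33.2 and 38.8 FPKM on the NASH diet alone and at 200.4 and 136 FPKM with added 7KC. Its log2 change was 2.19 (SE 0.21), the 25th highest of all 12299 tested genes. Irgm1, which also takes part in autophagy, was at 31.4 and 35.3 FPKM on the NASH diet alone and at 122 and 82.1 FPKM with added 7KC, with a log2 change of 1.57 (SE 0.21). Irgm2 was at 27.4 and 36.9 FPKM on the NASH diet alone and at 85.4 and 61.4 FPKM with added 7KC, and its log2 change of 1.17 (SE 0.22) was the lowest of the 7 genes. Igtp was above Irgm1 and Irgm2 in each of the 4 libraries. Over the libraries of a group, its range overlapped theirs in the control group and not in the 7KC group. The ratio of Igtp to Irgm2 was 1.21 and 1.05 in the control group and 2.35 and 2.22 in the 7KC group. The ratio of Igtp to Irgm1 was 1.06 and 1.1 in the control group and 1.65 and 1.66 in the 7KC group.

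Among the effector GKS genes, Iigp1 had the highest level of the family in every library, with 127 and 154 FPKM on the NASH diet alone and 470.2 and 295 FPKM with added 7KC. Its control mean was above that of 97.4% of the listed genes, so this gene was abundant in liver on the NASH diet alone. Without a chow group, whether the NASH diet changed its level cannot be told. The log2 change of Iigp1 was 1.41 (SE 0.25). Ifi47 was at 19 and 23.9 FPKM on the NASH diet alone and at 100.2 and 65.5 FPKM with added 7KC, with a log2 change of 1.90 (SE 0.24). Tgtp1 was at 6.07 and 7.69 FPKM on the NASH diet alone and at 53.8 and 35.7 FPKM with added 7KC. Its log2 change of 2.59 (SE 0.23) was the highest of the family and the 12th highest of all tested genes. Tgtp2 was the lowest of the family throughout, with 2.16 and 2.68 FPKM on the NASH diet alone, 13.4 and 10.3 FPKM with added 7KC and a log2 change of 2.07 (SE 0.18). Since the Tgtp pair shares most of its sequence, its summed level is the safer value, and it was 8.23 and 10.4 FPKM on the NASH diet alone against 67.2 and 46 FPKM with added 7KC, a ratio of group means of 6.08. In no GKS gene did the groups overlap.

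**Figure D1:**
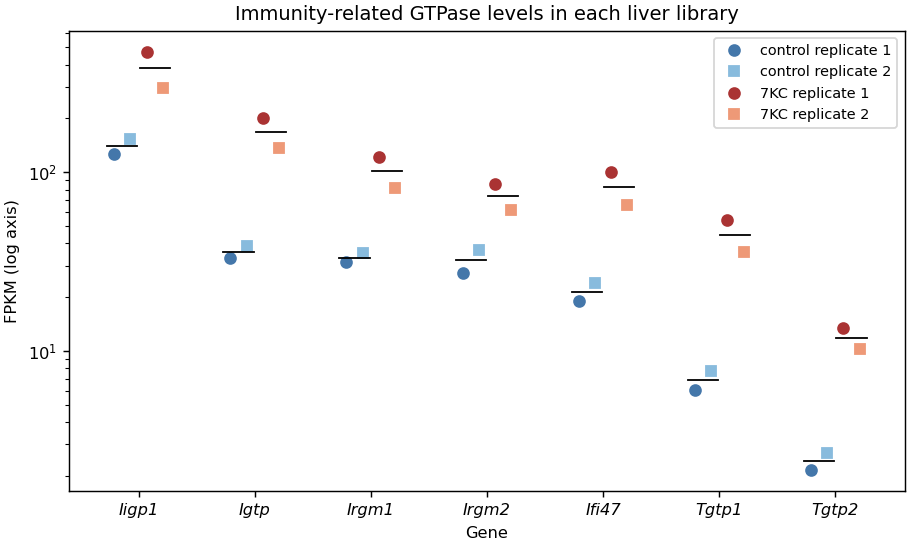
FPKM (log axis) of the 7 immunity-related GTPases in each library, with control libraries in blue, 7KC libraries in red and a short line at each group mean (n = 2). Every 7KC point lies above both control points of its gene, from Tgtp2 (2.16 to 2.68 against 10.3 to 13.4 FPKM) to Iigp1 (127 to 154 against 295 to 470.2 FPKM).

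The median log2 change was 1.90 over the 7 genes, 1.57 over the 3 GMS genes and 1.99 over the 4 GKS genes, and it was -0.03 over all tested genes. The GKS median counts Tgtp1 and Tgtp2 as separate genes. By summed FPKM the order of the classes was the reverse, with ratios of group means of 3.39 (GMS) and 3.04 (GKS). Whether the classes differed was not tested. At least 2-fold higher group means without overlap of the libraries were seen in 7 of 7 members, where 6.50% of all tested genes met this rule and 0.512% met it in the lower direction. The count was 6 of 7 without control replicate 1 or without 7KC replicate 1, where the ratio of Irgm2 was 1.99 and 1.91. In the limma fit 3 of the 7 (Igtp, Tgtp1 and Tgtp2) had an adjusted p under 0.05, where 0.480% of all tested genes were called higher. Nothing is read from these counts, because this contrast chose the members. The number of members called was 0 when control replicate 2 or either 7KC library was left out and 4 without control replicate 1, and the log2 changes stayed between 0.94 (Irgm2) and 2.89 (Tgtp1) under all alternatives tried.

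The order of levels within the family differed between the groups at some places. In the control libraries it ran from Iigp1 and Igtp through Irgm1 and Irgm2, which swapped places between replicates, to Ifi47, Tgtp1 and Tgtp2. In both 7KC libraries Ifi47 stood above Irgm2, although the ranges of Irgm1, Ifi47 and Irgm2 over the 2 libraries overlapped. Shares of the family's summed FPKM do not depend on how the libraries were scaled. Iigp1 made up 51.6% and 51.5% of the sum in the control group and 45% and 43% in the 7KC group. Igtp made up 13.5% and 12.9% in the control group and 19.2% and 19.9% in the 7KC group. Irgm2 was at 11.1% and 12.3% in the control group and at 8.17% and 8.95% in the 7KC group. The share of Tgtp1 was 2.46% and 2.57% in the control group and 5.15% and 5.19% in the 7KC group. These 4 shares differed between the groups by more than between replicates, as did those of Ifi47 and Tgtp2. Irgm1 overlapped between the groups, with 11.8% to 12.7% in the control libraries and 11.6% to 12% in the 7KC libraries. The GKS genes together held 62.7% and 63% of the sum in the control group and 61% and 59.2% in the 7KC group, so the share of the class moved by less than that of Iigp1 alone.

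**Figure D2:**
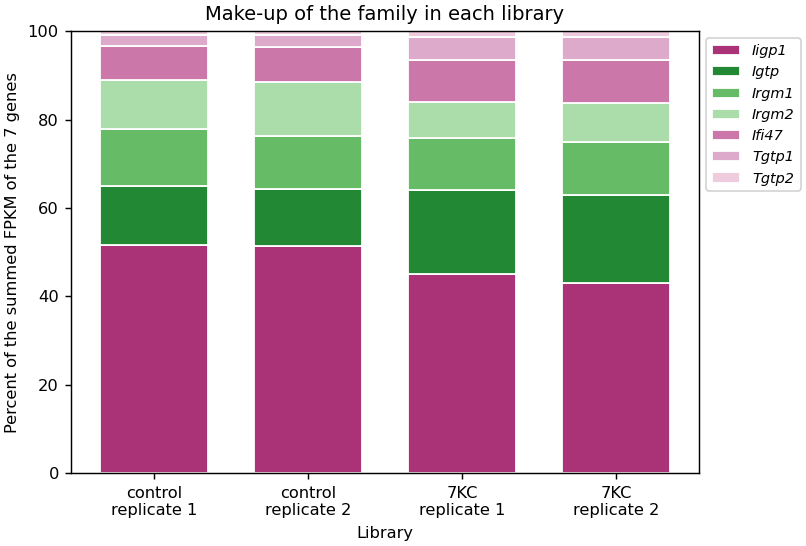
Percent of the summed FPKM of the 7 genes held by each gene in each library (stacked bars, GMS genes in green and GKS genes in purple). Iigp1 holds 51.5% and 51.6% in the control group and 45% and 43% in the 7KC group, and Igtp and Tgtp1 take larger shares there.

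Replicates within a group also differed in the same direction for every member. All 7 genes were higher in 7KC replicate 1 than in 7KC replicate 2, by 1.3 to 1.59 times, while the median ratio over all tested genes was 1.01. A ratio at or above 1.3 was found in 8.82% of the 12251 tested genes that were above 0 in all libraries. All 7 were also higher in control replicate 2 than in control replicate 1, by 1.12 to 1.35 times, against a median of 0.983 over all tested genes. The family therefore shifted together between individual samples as well as between the groups.

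Several family relatives outside the 7 were measured. Gm12250 (Irgb10), an effector GTPase that GENCODE lists as a processed pseudogene, was at 3.19 and 3 FPKM on the NASH diet alone and at 23 and 12.8 FPKM with added 7KC (log2 change 2.30, SE 0.28, limma adjusted p 0.0512). Gm4841 was at 1.08 and 1.75 FPKM on the NASH diet alone and at 9.13 and 5.04 FPKM with added 7KC (log2 change 1.95, SE 0.32, adjusted p 0.0655). Gm12185 was at 0.16 and 0.241 FPKM on the NASH diet alone and at 1.31 and 1.12 FPKM with added 7KC (log2 change 1.29, SE 0.20, adjusted p 0.0623), and it entered the test only through its level in the 7KC libraries. The ratios of mean FPKM were 5.79 for Gm12250, 5 for Gm4841 and 6.07 for Gm12185, and none of these genes passed the threshold. Gm5431 (0.86, SE 0.17, adjusted p 0.0966), F830016B08Rik (0.68, SE 0.11, adjusted p 0.0679) and 9930111J21Rik1 (0.92, SE 0.28, adjusted p 0.193) did not pass either, and their log2 changes were lower.

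Not all relatives followed the family. Gm4951 was at 46.5 and 52.9 FPKM on the NASH diet alone and at 64.9 and 51.7 FPKM with added 7KC, so its groups overlapped (log2 change 0.22, SE 0.15, limma adjusted p 0.491). Irgq, a quasi-GTPase of the family, was at 3.6 and 4.23 FPKM on the NASH diet alone and at 3.66 and 4.04 FPKM with added 7KC (log2 change -0.02, SE 0.14, adjusted p 0.96, with a sign that changed between settings). Of the 8 relatives tested, 0 passed limma's adjusted threshold, 6 had an unadjusted p under 0.05 with higher values in the 7KC group (12.0% of all tested genes did), and the median log2 change was 0.89. Up to 4 relatives passed under other settings, and 1 passed without control replicate 1. The other 2 listed relatives, 9930111J21Rik2 and Irgc1, were below the filter on low values.

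**Figure D3:**
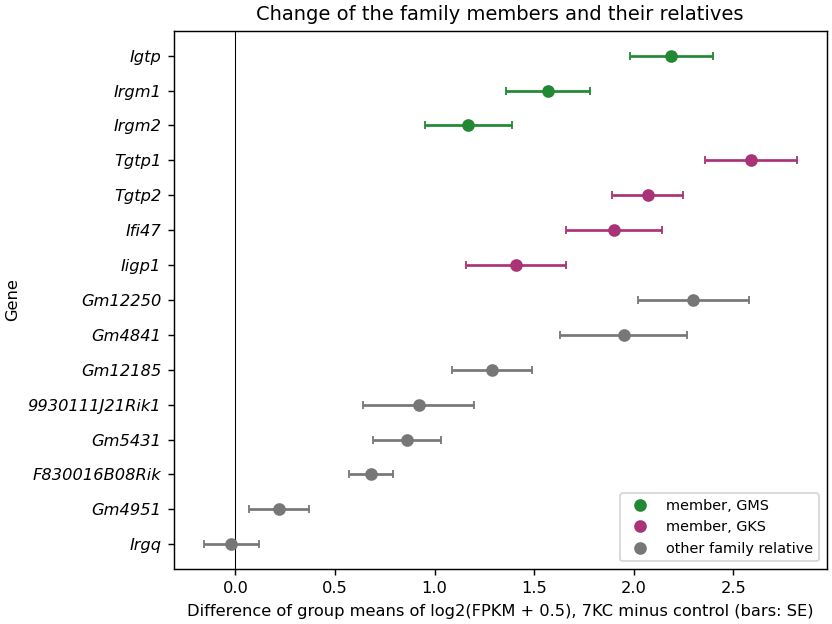
Log2 change of the members (GMS in green, GKS in purple) and the 8 tested relatives (grey), as the difference of group means of log2(FPKM + 0.5) between 7KC and control with SE bars from the limma fit. The members lie between 1.17 and 2.59, Gm12250 and Gm4841 lie at 2.30 and 1.95, and Gm4951 and Irgq lie near 0.

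Interferon-gamma signals through a receptor of 2 chains and the kinases JAK1 and JAK2, and its signal induces further factors such as IRF1 and the inhibitor SOCS1. The ligand gene Ifng was at 0.408 and 0.362 FPKM on the NASH diet alone and at 2.99 and 1.38 FPKM with added 7KC (log2 change 1.53, SE 0.32, limma adjusted p 0.104). The ratio of its mean FPKM was 5.67, and its control mean was under the filter, so that it entered the test only through its level in the 7KC libraries. The receptor genes Ifngr1 (0.41, SE 0.19, adjusted p 0.335) and Ifngr2 (0.66, SE 0.10, adjusted p 0.0621) and the kinase genes Jak1 (-0.02, SE 0.13, adjusted p 0.949) and Jak2 (0.57, SE 0.14, adjusted p 0.132) did not pass the threshold, and the sign of Jak1 changed between settings. Irf8, an interferon regulatory factor of myeloid cells, rose from 10.6 and 8.16 FPKM to 26.8 and 26.2 FPKM, which is 1.46 on the log2 scale (SE 0.15, adjusted p 0.0369). Irf1 was at 32.6 and 23.1 FPKM on the NASH diet alone and at 72.4 and 52.4 FPKM with added 7KC (log2 change 1.15, SE 0.23, adjusted p 0.0965). Socs1 was at 2.54 and 2.07 FPKM on the NASH diet alone and at 18.8 and 7.17 FPKM with added 7KC (log2 change 2.12, SE 0.43, adjusted p 0.0985). Of the 24 tested genes of the interferon-gamma signaling list, 21 lay higher in both 7KC libraries than in both control libraries (25.1% of all tested genes did). An unadjusted p under 0.05 in limma with higher values in the 7KC group was found for 17 (12.0% of all tested genes). The median log2 change was 0.87. By limma's adjusted threshold 2 rose and 0 fell, where 0.480% of all tested genes were called higher and 0.0244% lower. The 24 include 4 genes, Ifng among them, whose control mean was under the filter. The count was 6 without control replicate 1 and 0 without any 1 of the other libraries.

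The immunity-related GTPases can also respond to type I interferons, which use their own receptor. Their ligand genes Ifnb1, Ifna2 and Ifna4 were listed at 0 in all libraries. The receptor genes Ifnar1 (log2 change 0.14, SE 0.12, limma adjusted p 0.581) and Ifnar2 (-0.03, SE 0.11, adjusted p 0.918) did not pass the threshold, and the sign of Ifnar2 changed between settings. The same held for the transcription factors Stat2 (0.41, SE 0.12, adjusted p 0.178), Irf9 (0.23, SE 0.10, adjusted p 0.33) and Irf7 (1.06, SE 0.16, adjusted p 0.0619) and for the inhibitor Usp18 (0.69, SE 0.32, adjusted p 0.331). Of the 8 tested genes of this list 0 passed limma's threshold, 3 had an unadjusted p under 0.05 with higher values in the 7KC group (12.0% of all tested genes did), and the median log2 change was 0.29. Under other settings at most 1 gene passed, which was also the count without control replicate 1. Whether this list differed from the interferon-gamma list was not tested.

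Other genes that interferon-gamma induces were measured beside the family. Among 13 tested targets, 4 rose and 0 fell, where 0.480% of all tested genes were called higher and 0.0244% lower: the chemokine Cxcl9 (log2 change 2.85, SE 0.21, limma adjusted p 0.0244), the inducible nitric oxide synthase Nos2 (2.95, SE 0.26, adjusted p 0.0275, with a ratio of mean FPKM of 13.1), the immune checkpoint ligand Cd274 (2.15, SE 0.18, adjusted p 0.0275) and the peptide transporter Tap1 (1.34, SE 0.13, adjusted p 0.0336). The median was 1.34, and the count was 9 and 1 without control replicates 1 and 2 and 0 without either 7KC library. The guanylate-binding proteins are larger interferon-inducible GTPases that act on the same vacuoles. Of these 11 genes 9 rose and 0 fell, against the same 0.480% and 0.0244% of all tested genes, with a median of 1.96, a value next to the 1.90 of the 7 members. The smallest p-values belonged to Gbp3 (1.96, SE 0.13, adjusted p 0.0244), Gbp2 (2.52, SE 0.17, adjusted p 0.0244), Gbp8 (1.88, SE 0.14, adjusted p 0.0244) and Gbp5 (2.62, SE 0.21, adjusted p 0.0255). Their count was 10 and 5 without control replicates 1 and 2 and 0 without either 7KC library. These genes also share sequence with one another, and the lists were written with earlier results of these data known.

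The machinery that cells use together with the effector GTPases at vacuole membranes, which conjugates ATG8 proteins and ubiquitin, made up another list. Of its 15 tested genes 0 passed limma's adjusted threshold in either direction, 1 in each direction had an unadjusted p under 0.05 (12.0% of all tested genes were higher and 5.81% lower by this measure), and the median log2 change was -0.11. The smallest p-values were those of the ubiquitin ligase Trim21 (3.4 and 4.04 FPKM on the NASH diet alone, 5.99 and 5.42 FPKM with added 7KC, adjusted p 0.142) and the autophagy receptor Nbr1 (66.5 and 72.1 FPKM, then 58.8 and 53.2 FPKM, adjusted p 0.271). The median of this list was 0.10 when the libraries were rescaled to the same sum, a scaling that moved the median of all genes to 0.17.

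**Figure D4:**
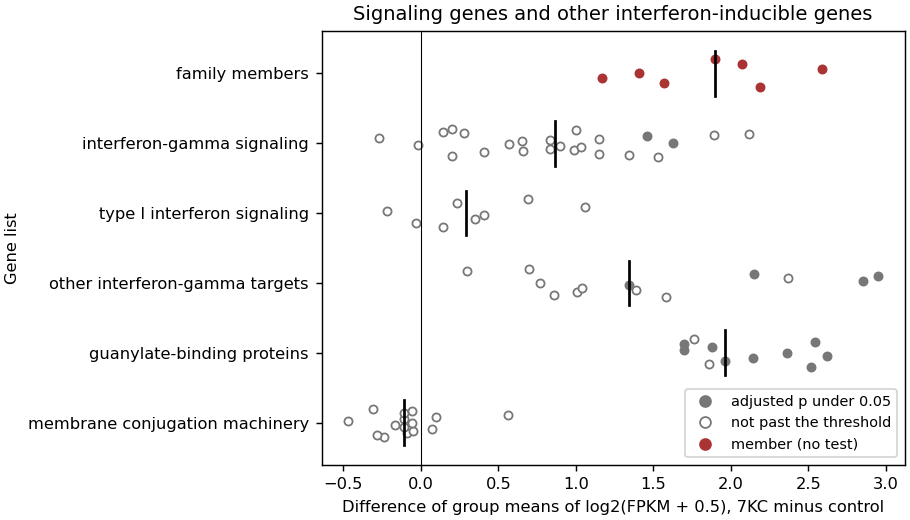
Log2 change, 7KC minus control, of each tested gene of the family and of 5 pathway lists (points, filled where the limma adjusted p was under 0.05, red for the members, whose calls are not marked; vertical bars are medians). The guanylate-binding proteins (median 1.96, 1.70 to 2.62) lie in and just above the upper part of the range of the members (median 1.90, 1.17 to 2.59). The membrane conjugation genes (median -0.11) lie around 0.

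The 5 genes whose profiles over the 4 libraries came nearest to the mean profile of the 7 members, by Euclidean distance of log2(FPKM + 0.5) centred on each gene's control mean among 11234 genes, were Gbp8 (distance 0.235), Gbp7 (0.273), Serpina3g (0.283), Gm4841 (0.285) and Serpina3f (0.31). Serpina3g and Serpina3f encode protease inhibitors. Serpina3g was at 16.8 and 20 FPKM on the NASH diet alone and at 79 and 67.5 FPKM with added 7KC. Like the members, it was higher in control replicate 2 and in 7KC replicate 1 than in the other library of its group. The choice by profile favoured such an order. This likeness rests on 4 libraries.

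Markers of some immune cells were also at higher levels in the 7KC libraries, and 0 genes of the immune cell lists passed limma's adjusted threshold. The summed level of 12 T and NK cell markers was 15.2 to 21.6 FPKM in the control libraries and 45.9 to 56.9 FPKM in the 7KC libraries. All 11 of these markers that were tested lay higher in both 7KC libraries than in both control libraries (25.1% of all tested genes did), with a median log2 change of 1.24. Of these 11, which include 2 that entered the test only through the 7KC libraries, 11 had an unadjusted p under 0.05 with higher values in the 7KC group (12.0% of all tested genes did). The sum of 9 monocyte and macrophage markers was 413 to 643 FPKM in the control libraries and 1182 to 1865 FPKM in the 7KC libraries, with Lyz2 as its largest part. Of the 9, 7 lay higher without overlap between the groups (25.1% of all tested genes did) and 7 had an unadjusted p under 0.05 (12.0%), with a median log2 change of 1.59. None of the defining markers Cd3e, Cd3g, Lyz2, Cd68 and Csf1r was at 0 in any library. The sum of 6 Kupffer cell markers was 290.4 to 293 FPKM in the control libraries and 338 to 507 FPKM in the 7KC libraries. Without overlap between the groups, 3 of the 6 lay higher (25.1% of all tested genes did) and 2 lay lower (27.4% did). The sums of 6 endothelial markers, 96.4 to 115 FPKM against 89.3 to 129 FPKM, overlapped between the groups, and so did those of 5 B cell markers (2.26 to 7.03 against 6.47 to 6.63 FPKM). Those of 5 neutrophil markers (18.3 to 33.9 against 39.4 to 42.3 FPKM) did not, although 2 of the 4 tested markers overlapped. A limma unadjusted p under 0.05 with higher values in the 7KC group was found for 12.0% of all tested genes. Among the tested markers it was found for 2 of 6 Kupffer cell, 2 of 4 neutrophil and 1 of 3 B cell markers. The part of these cells in the levels of the immunity-related GTPases was not tested.

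Within the 7KC group the markers divided. The 7 members were higher in 7KC replicate 1 than in 7KC replicate 2 at a median ratio of 1.48. The 11 guanylate-binding proteins (median ratio 1.29) and the 13 tested interferon-gamma targets (1.16) leaned the same way. By contrast, the 9 monocyte and macrophage markers had a median ratio of 0.629 and the 6 endothelial markers one of 0.675. Lyz2, for instance, was at 995 and 1583 FPKM in 7KC replicates 1 and 2, and Adgre1, which encodes F4/80, at 14.3 and 28.6 FPKM. The ratio of the T and NK cell markers had a median of 1.23 and ranged from 0.681 to 2.58, from Cd8b1 to the granzyme gene Gzma, and Ifng had a ratio of 2.17. The hepatocyte markers had a median of 1.21, close to that of the T and NK cell markers. The part of any of these cells in the difference between the 7KC libraries was not tested.

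The control libraries repeated this order in part. All 7 members were higher in control replicate 2, where the monocyte and macrophage sum was again the lower one (413 FPKM against 643 FPKM). Most of this sum was Lyz2 (538 and 321 FPKM in control replicates 1 and 2). Itgam, Ly6c2, Ccr2, Cd68, Itgax and Cx3cr1 were likewise lower in control replicate 2, at 0.362 (Itgax) to 0.737 (Cd68) times control replicate 1. Only Adgre1 (9.93 and 14.5 FPKM) and Csf1r (36.8 and 40.4 FPKM) were higher in control replicate 2, like the members. Unlike in the 7KC group, the T and NK cell sum was 21.6 FPKM in control replicate 1 and 15.2 FPKM in control replicate 2, so it was lower where the members were higher. The endothelial sum (96.4 and 115 FPKM) also differed from that group, being higher where the members were higher. The hepatocyte sum (77176 and 67628 FPKM), with Alb as its largest part, was lower in control replicate 2, while other hepatocyte markers went both ways. Ifng was at 0.408 and 0.362 FPKM in control replicates 1 and 2, Irf1 at 32.6 and 23.1 FPKM and Cxcl9 at 29 and 22.3 FPKM, each with the lower value in control replicate 2. The guanylate-binding proteins went both ways. Gbp4 (2.49 and 3.55 FPKM) went with the members, and Gbp2 (20.1 and 15 FPKM) did not. Their sum was 63.1 FPKM in control replicate 1 and 68.2 FPKM in control replicate 2. With 2 libraries in each group these orders are a description. Gbp2, Gbp4, Lyz2, Adgre1, Csf1r, Cd8b1 and Gzma were picked as examples after their values were seen.

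**Figure D5:**
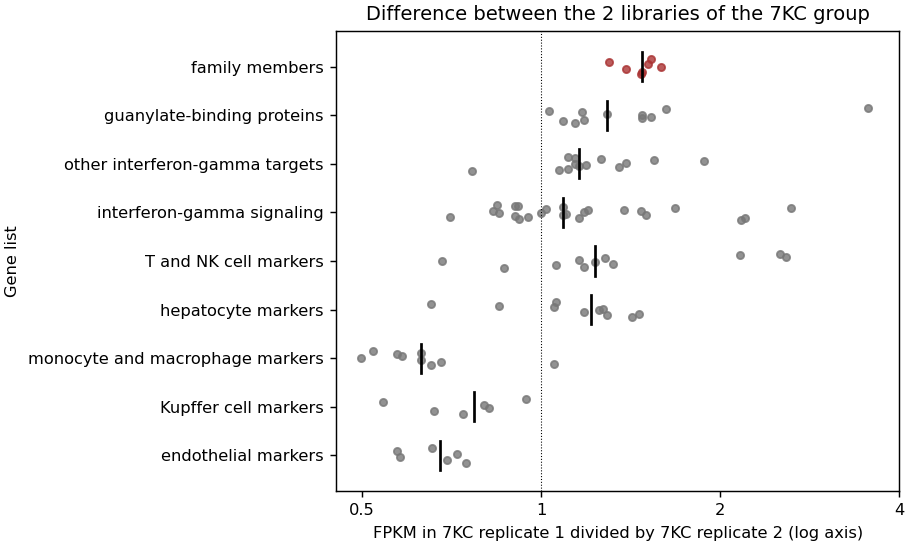
FPKM in 7KC replicate 1 divided by 7KC replicate 2 (log axis) for each gene of the family and of 8 lists (points), with the median of each list as a vertical bar. All 7 members lie between 1.3 and 1.59, and the guanylate-binding proteins have a median of 1.29. The monocyte and macrophage markers have a median of 0.629 and the endothelial markers one of 0.675.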

How the data were processed

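Liver RNA was measured in 4 libraries, grouped by their labels into control and 7KC. The authors made stranded mRNA libraries, sequenced 75-base single-end reads and mapped them to mm10. The submitters' processing notes name TopHat2 2.1.1, Bowtie2 2.2.8, SAMtools 0.1.18 and Cuffdiff 2.2.1. Per library the authors deposited FPKM, 1 for each gene symbol. Which annotation was used and how reads mapping to several genes were handled is not given in the sources used here. Since FPKM is scaled by the mapped reads of the library, a change in abundant genes moves all others.

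Genes whose mean reached 0.5 FPKM (12299) were compared as log2(FPKM + 0.5) with limma 3.58.1 in R 4.3.3 (eBayes with trend, group as the only term, 2 residual and 3.27 prior degrees of freedom), with Benjamini-Hochberg adjustment over all of them and a threshold of 0.05. Changes at least 2-fold without overlap were counted on mean FPKM. The fit was tested on simulated data. Depth was estimated from single-transcript genes with low values: at the estimated depth 75.5% to 77% of these were whole reads within a tolerance of 0.1, against 11.9% to 12.3% at the median of the trial depths. At these depths the FPKM of Tgtp2, the lowest member, stood for roughly 95.8 reads in the library with the fewest of them. Since 85.2% of the 75-base windows of Tgtp2 also occur in Tgtp1, many of these reads could come from either gene.

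The members and the gene lists were chosen with earlier results of these data known. The lists name 142 symbols, of which 140 are listed in the files. Named genes were all members, the tested relatives, fixed steps of the signaling pathways, the smallest p-values of each pathway list and the 5 most alike profiles. No sequence or coordinate of Iigp1 is shown. A gene of the interferon-gamma signaling list is counted with its list and is not reported here.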

Additional observations from a re-analysis of the deposited data

How the results depend on the processing

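The log2 changes of the 7 members kept their direction in 76 of 76 recomputed values, and 75 moved by less than the spread between replicates. The other was Tgtp2 at 2.34 after rescaling to the same sum. In every member both 7KC values lay above both control values. A changed pseudocount or a left-out library therefore could not reverse a direction, and the kept direction is no test there. Some of the 76 values could not move at all. Using the replicate number as a block leaves each difference unchanged in this balanced design. Summing Tgtp1 and Tgtp2 leaves the other members unchanged. With single libraries left out, 6 or 7 members stayed at least 2-fold higher, and their median log2 change was 1.60 to 2.20. Overlap between the groups could not arise there. Counts of genes past the limma threshold were far less stable. Over all tested genes, 59 higher and 3 lower became 111 higher with a pseudocount of 1 FPKM, 0 and 1 with low values kept, 402 higher and 7 lower when rescaled to the same sum, 94 higher when rescaled by the median ratio, and 39 higher and 1 lower without a trend in the prior variance. Leaving out single libraries gave 2 to 389 higher and 1 to 52 lower. Rescaling to the same sum moved the median of all tested genes from -0.03 to 0.17.

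With a pseudocount of 1 FPKM, 1 relative and 8 interferon-gamma targets passed. Without the filter, 0 members, 0 interferon-gamma signaling genes, 0 targets and 0 guanylate-binding proteins passed. After rescaling to the same sum, 7 members, 4 relatives, 11 interferon-gamma signaling genes, 1 type I signaling gene and 12 targets passed. The median ratio gave 1 relative and 8 targets, quantile normalization 7 targets, and the fit without trend 1 interferon-gamma signaling gene. Leaving out single libraries gave 0 to 4 members, 0 to 1 relatives, 0 to 6 interferon-gamma signaling genes, 0 to 1 type I genes, 0 to 9 targets and 0 to 10 guanylate-binding proteins.

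Genes at least 2-fold higher without overlap numbered 1548 without the filter. Genes at least 2-fold lower numbered 63, and 31 after rescaling to the same sum, 104 after quantile normalization, 301 without the filter, 38 with a mean of at least 1 FPKM, and 90 to 149 with single libraries left out. Of 33 other named genes, 389 of 461 values kept their direction and their side of the threshold, 48 lost the threshold, 14 gained it and 10 changed sign. The changes of sign were those of Irgq (0.17 at the same sum, -0.12 to 0.09 with single libraries left out, above 0 without control replicate 2 at 0.09 and without 7KC replicate 1 at 0.04), Jak1 (0.18 at the same sum, 0.02 with quantile normalization, -0.13 to 0.09 with single libraries left out, above 0 without control replicate 2 at 0.03 and without 7KC replicate 1 at 0.09) and Ifnar2 (0.18 at the same sum, 0.06 with quantile normalization, -0.08 to 0.03 with single libraries left out, above 0 without 7KC replicate 1). The median of the membrane conjugation genes turned to 0.10 at the same sum. The cause of these shifts was not tested.

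The groups share replicate numbers, but the labels do not tie equal numbers to one animal or day, and the deviations of same-numbered samples from their group means correlated at -0.14 over 12299 genes. With the replicate number as a block, 0 genes were called higher and 0 lower, so 0 members, 0 interferon-gamma signaling genes, 0 targets and 0 guanylate-binding proteins passed. The crossed pairing, chosen after seeing the data, gave 551 higher and 37 lower, with 7 members, 4 relatives, 7 interferon-gamma signaling genes, 1 type I gene and 11 targets. With 2 libraries a group and no counts, small differences cannot be resolved here.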
